A study of Mus musculus with 72 samples.

Results

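The libraries described here are those of the mouse hippocampus labelled 6J (C57BL/6J) from the cue and home cage groups, divided into Lcn2-high and Lcn2-low. They were chosen by the measured level of Lcn2: a library code was high when its Lcn2 CPM (the count scaled by the total of gene counts in the library) was above 2 in both the dorsal (DH) and the ventral hippocampus (VH), and low otherwise. Of 24 libraries, 12 were high and 12 low, from 6 codes each with 1 DH and 1 VH library, out of 72 libraries in the whole series. The study sequenced messenger RNA from male mice labelled 6J or 6NJ (C57BL/6NJ) in 3 conditions. High codes comprised 4 from mice given the cue alone (32A, 32B, 34A, 34C) and 2 from the home cage (35A, 35B), and low codes comprised 2 from the cue (32C, 34B) and 4 from the home cage (35C, 36A, 36B, 36C). Tissue of the cue groups was taken 30 min after the cue, and no treatment other than the cue separates the groups in the labels. The labels give no ages and do not say whether codes were separate mice, so p-values measure the spread between these libraries, which may in part be technical.

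Lcn2 encodes lipocalin-2, a secreted protein that binds siderophores, the small molecules with which bacteria take up iron. It is an acute phase protein that neutrophils store in granules and that astrocytes and vascular cells make during inflammation, where signals of the interleukin-6 and interleukin-1 type raise it. In the brain it is widely used as a marker of reactive astrocytes, and activated vessels make, among others, Lrg1 and the adhesion molecule Sele.

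The genes shown next as promoter sequence are Lcn2, which chose the libraries, and the 4 genes that were higher in both regions by a log2 fold change over 1. Each line gives 250 bases before and 50 after the annotated start, 5′ to 3′ on the gene's strand, from RefSeq (GRCm38.p6), with capitals marking matches to the motifs searched on both strands: TTCNNNGAA (STAT type), ACANNNTGT (glucocorticoid receptor core) and GGNNNTTCC (NF-kappa-B type).
Lcn2: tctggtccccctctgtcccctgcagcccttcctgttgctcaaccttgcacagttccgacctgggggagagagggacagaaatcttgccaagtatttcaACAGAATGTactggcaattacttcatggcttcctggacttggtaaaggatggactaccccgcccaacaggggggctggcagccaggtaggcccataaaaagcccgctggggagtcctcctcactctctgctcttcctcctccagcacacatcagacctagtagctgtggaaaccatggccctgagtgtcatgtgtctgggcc
Lrg1: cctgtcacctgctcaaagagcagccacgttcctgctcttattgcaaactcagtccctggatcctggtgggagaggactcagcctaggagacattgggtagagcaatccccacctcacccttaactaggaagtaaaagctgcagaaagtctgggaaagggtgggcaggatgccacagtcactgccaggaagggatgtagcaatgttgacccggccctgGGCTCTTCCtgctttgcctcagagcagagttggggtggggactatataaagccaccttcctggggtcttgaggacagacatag
S100a9: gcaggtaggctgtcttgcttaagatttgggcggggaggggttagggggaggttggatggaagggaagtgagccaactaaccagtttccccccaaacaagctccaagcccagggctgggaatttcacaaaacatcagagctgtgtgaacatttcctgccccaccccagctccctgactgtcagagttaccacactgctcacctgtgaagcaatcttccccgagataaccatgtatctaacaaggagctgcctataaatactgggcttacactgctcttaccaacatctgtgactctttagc
Ch25h: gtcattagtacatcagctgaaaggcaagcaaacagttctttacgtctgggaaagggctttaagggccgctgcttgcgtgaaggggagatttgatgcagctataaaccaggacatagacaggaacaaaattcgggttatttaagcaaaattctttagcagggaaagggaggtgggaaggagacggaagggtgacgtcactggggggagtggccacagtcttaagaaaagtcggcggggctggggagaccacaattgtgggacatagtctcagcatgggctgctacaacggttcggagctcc
Tmem252: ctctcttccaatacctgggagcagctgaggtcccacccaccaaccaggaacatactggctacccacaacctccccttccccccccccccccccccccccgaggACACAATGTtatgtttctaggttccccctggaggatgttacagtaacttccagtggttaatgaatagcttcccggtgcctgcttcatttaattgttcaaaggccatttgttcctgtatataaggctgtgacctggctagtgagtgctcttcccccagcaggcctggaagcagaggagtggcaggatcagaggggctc

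The windows lie at chr2:32387690-32387989 (minus strand) for Lcn2, chr17:56121897-56122196 (minus) for Lrg1, chr3:90695672-90695971 (minus) for S100a9, chr19:34475099-34475398 (minus) for Ch25h and chr19:24673758-24674057 (plus) for Tmem252. The STAT type motif was in 8.3% of 32851 RefSeq promoters of this length, the glucocorticoid receptor core in 6.85% and the NF-kappa-B type in 18.5%. Lcn2 held 1 match to the glucocorticoid receptor core, Tmem252 held 1 to the same motif and Lrg1 held 1 to the NF-kappa-B type, while S100a9 and Ch25h held no match. Of the 11 genes higher in both regions, 8 had a promoter in the table, and 1 of these held the STAT type, 3 the glucocorticoid receptor core and 2 the NF-kappa-B type. These matches are a description of letters in the window and were tied to no measurement of binding.

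Lcn2 (ENSMUSG00000026822, GRCm38 chr2:32384633-32388252, minus strand) was at 5.15 CPM at the lowest, 13.5 at the median and 20.4 at the highest in the 6 high DH libraries, and at 0.0312, 0.114 and 0.178 CPM in the 6 low DH libraries. In VH the high libraries were at 3.96, 10.3 and 16.7 CPM and the low libraries at 0.0271, 0.0966 and 0.296 CPM. These are the values that chose the classes, so they carry no test. The library just inside the threshold was the VH library of 34C, with 121 Lcn2 counts (3.96 CPM, exact Poisson 95% interval 3.29 to 4.74, counting error only), and the highest low library was the VH library of 36B, with 11 counts (0.296 CPM, 0.148 to 0.53). No library lay between 0.697 CPM, the highest value among the 48 others (VH of code 38A, labelled 6NJ), and 3.96 CPM. Either region alone gave the same 6 codes at a threshold of 1 or 2 CPM, and at 5 CPM VH kept 5 of them. In the 12 libraries labelled 6J after shock and cue, Lcn2 reached at most 0.109 CPM in DH and 0.142 in VH. In the table of estimated transcript counts, the protein-coding transcript Lcn2-201 (915 nt) had a median of 12.7 CPM in high and 0.107 CPM in low DH libraries, and of 9.54 CPM in high and 0.094 CPM in low VH libraries, over the total of estimated counts.

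**Figure D1:**
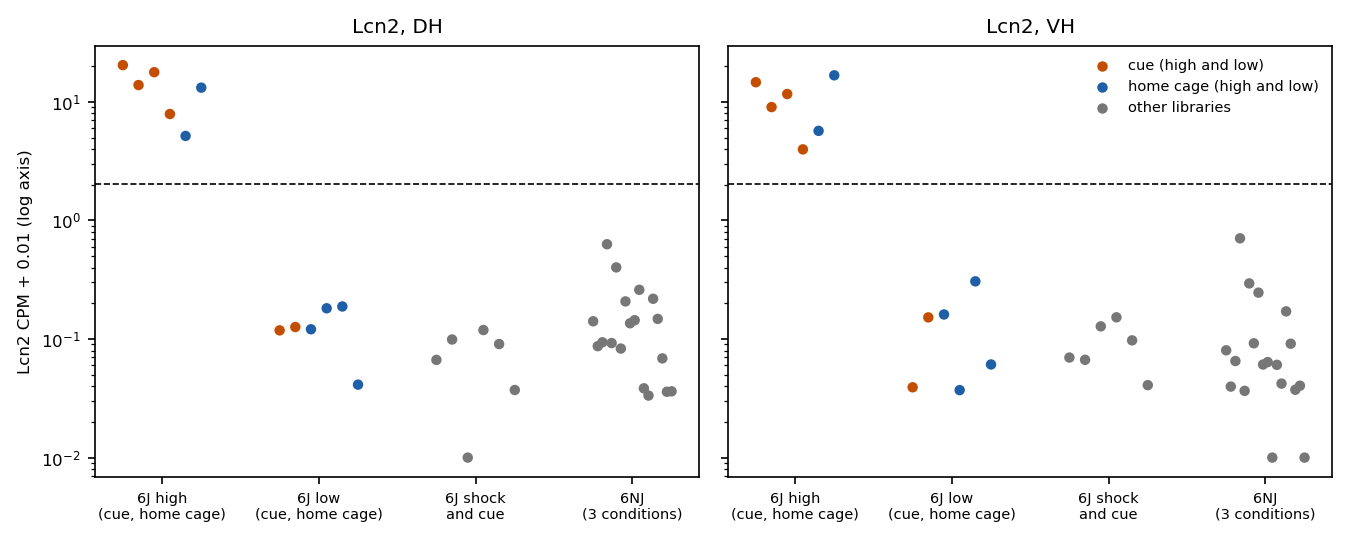
Lcn2 CPM plus 0.01, on a log axis, in each library of DH and VH, with the 6J high and low libraries coloured by condition, other libraries in grey and the threshold of 2 CPM dashed. The 6 high libraries of each region sit at or above 3.96 CPM and every other library at or below 0.697 CPM.

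Library totals were 34015037 to 37906707 gene counts in high DH libraries and 32012867 to 36945932 in low DH libraries, and 30330382 to 38182309 in high VH libraries and 34278567 to 56258370 in low VH libraries. Mitochondrial genes took 5.71 to 7.49% in high and 5.9 to 8.76% in low DH libraries, and 6.15 to 8.78% in high and 7.27 to 9.34% in low VH libraries. Strain names here mean the label: Nnt, part of which is deleted in C57BL/6J mice, averaged 20.3 ± 1.27 CPM over 6NJ-labelled libraries, against 38.0 ± 2.02 CPM over 6J-labelled ones (SD, n = 36 each), opposite to the direction a deletion in 6J gives. Gabra2, lowered in C57BL/6J by a variant, averaged 120 ± 16.4 CPM (6NJ label) and 268 ± 35.5 CPM (6J label; SD, n = 36 each), also opposite. Nnt was at 35.8 to 44.3 CPM in the high and 35.2 to 40.7 CPM in the low libraries. Hippocampal neuron genes were abundant in both classes: the summed level of 8 of them was 10031 to 11412 CPM in high and 10151 to 10964 CPM in low DH libraries, and 9683 to 10834 CPM in high and 9365 to 10457 CPM in low VH libraries.

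A small share of genes differed between the high and low libraries, and most of those that passed the test were higher. With condition in the model, 22 of 18523 genes passed in DH (0.119%; edgeR's quasi-likelihood test, Benjamini-Hochberg adjusted p under 0.05), 21 higher (0.113%) and 1 lower (0.0054%). In VH 66 of 18652 passed (0.354%), 63 higher (0.338%) and 3 lower (0.0161%). In 11 of the 18222 genes tested in both regions (0.0604%) the call was made in both and in the same direction, all higher. These were Lrg1, S100a9, Ch25h, Tmem252, Ly6a, Ly6c1, Ctla2a, Tgm2, Adgrl4, Fkbp5 and the unnamed gene model Gm49391, which overlaps Ctla2a. They made up 50% of the DH calls and 16.7% of the VH calls. Their log2 fold changes ran from 0.37 to 3.77 in DH and from 0.45 to 4.11 in VH. DH and VH libraries share their codes, so the regions are not known to be separate mice. At an unadjusted p under 0.05, 1755 genes passed in DH and 2674 in VH.

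The counts depended on which codes were in the fit. Without both home cage high codes, 35A and 35B, 1 gene passed in DH (Lrg1), 1 in VH (Dok3) and 0 in both regions, with 1206 and 1575 genes at an unadjusted p under 0.05. That fit has no high library in the home cage. All 22 DH genes and all 66 VH genes kept their direction in it, at adjusted p up to 0.673 in DH and 0.646 in VH (edgeR). They were called with these same libraries in the fit, so the kept direction follows largely from that selection and is a description. Leaving out 1 code gave 3 (35A), 4 (35B), 8 (32C, and also 34B), 9 (36A), 13 (32B), 14 (35C, and also 36C), 35 (32A) or 52 (34A) genes in DH. In VH it gave 18 (34B), 22 (35B), 29 (36A), 31 (35C), 34 (35A), 42 (36B), 167 (32C) or 246 (34A) genes. Codes not named there moved the count by less than 1.5 times. For the overlap of both regions it gave 2 (35A, and also 35B), 4 (36A), 5 (34B), 6 (32C, 35C and 36C), 7 (36B), 18 (32A) or 28 (34A) genes.

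**Figure D2:**
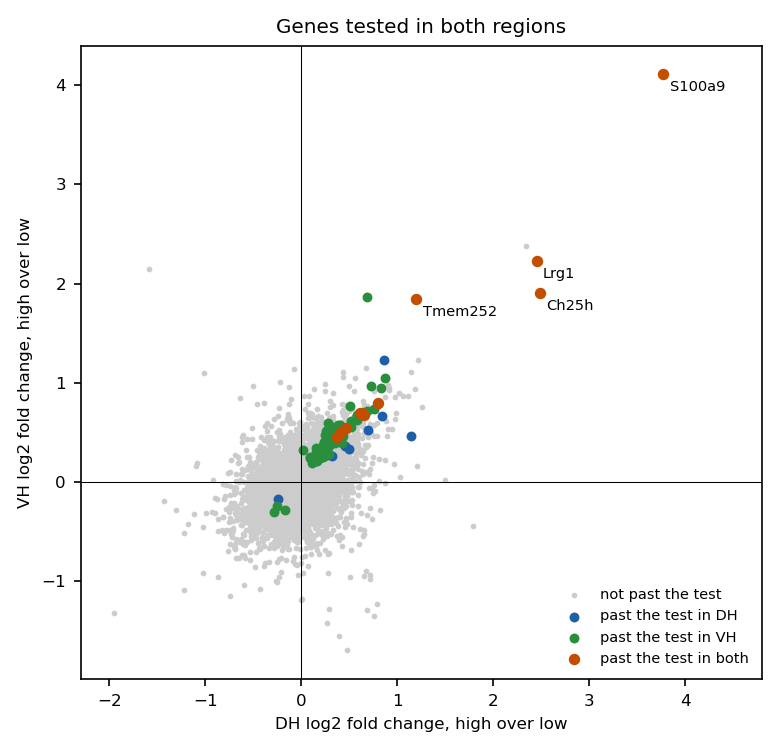
Log2 fold change of high over low libraries in DH (x axis) and VH (y axis) for each gene tested in both regions, coloured by where it passed the test. The 11 genes past the test in both lie above 0 on both axes, and S100a9, Lrg1, Ch25h and Tmem252 lie above 1 on both.

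Lrg1 (chr17:56119678-56122001, minus strand, GRCm38), which encodes a secreted leucine-rich glycoprotein of the acute phase that also acts on endothelial cells, had the smallest p in DH. It was at 1.82 CPM at the lowest, 2.96 at the median and 5.45 at the highest in high DH libraries, and at 0.436, 0.743 and 1.12 CPM in low DH libraries (log2 fold change 2.45 ± 0.171 SE, adjusted p = 4.56e-06). In VH the high libraries were at 1.21, 2.01 and 7.96 CPM and the low libraries at 0.498, 0.948 and 1.13 CPM (2.23 ± 0.263, adjusted p = 0.00305). The classes did not overlap in either region, and the 2 home cage high codes had the highest values: 3.97 and 5.45 CPM in DH and 5.19 and 7.96 CPM in VH. Its call held in both regions without any 1 code, and in VH it was lost without 35A and 35B together (log2 fold change 1.36, adjusted p = 0.264). In bulk tissue, more cells of a type and more RNA per cell cannot be told apart.

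Ch25h (chr19:34473778-34475164, minus strand), cholesterol 25-hydroxylase, which makes an oxysterol with roles in innate immunity, was at 0.82, 1.83 and 4.57 CPM (lowest, median, highest) in high DH libraries and at 0.139, 0.284 and 0.386 CPM in low DH libraries (log2 fold change 2.49 ± 0.395 SE, adjusted p = 0.0299). In VH it was at 0.89, 1.18 and 3.2 CPM in high libraries and at 0.213, 0.35 and 0.539 CPM in low libraries (1.90 ± 0.363, adjusted p = 0.0393). The classes did not overlap, and in DH the cue high codes, at 1.68 to 4.57 CPM, lay above the home cage high codes, at 0.82 and 0.832 CPM. Ch25h had 29 to 167 counts in high and 5 to 13 in low DH libraries. In DH it passed the low-count filter mainly through the high libraries, so that test is not free of this selection. Its call held in 4 of 12 fits that each left out 1 code, in DH and in VH alike, and in DH its log2 fold change was 3.39 without 35A and 35B (adjusted p = 0.121). Tmem252 (chr19:24674008-24682233, plus strand), which encodes a transmembrane protein, was at 1.74, 3.46 and 4.3 CPM in high and 0.772, 1.11 and 1.62 CPM in low DH libraries (1.20 ± 0.185, adjusted p = 0.0187). In VH it was at 2.41, 2.65 and 3.49 CPM in high and 0.428, 0.785 and 0.995 CPM in low libraries (1.84 ± 0.178, adjusted p = 9.8e-05), again with no overlap.

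S100a9 (chr3:90692632-90695721, minus strand), a subunit of the calcium-binding protein calprotectin of neutrophils, was at 0.501, 1.11 and 4.13 CPM in high and 0.0312, 0.115 and 0.32 CPM in low DH libraries (log2 fold change 3.77 ± 0.511 SE, adjusted p = 0.0175). In VH it was at 0.426, 0.632 and 5.97 CPM in high and 0.0504, 0.0948 and 0.213 CPM in low libraries (4.11 ± 0.566, adjusted p = 0.0154). S100a9 had 19 to 146 counts in high and 1 to 11 in low DH libraries, and 13 to 228 and 2 to 12 counts in VH. It passed the low-count filter mainly through the high libraries, so its test is not free of that selection. The classes did not overlap, and the home cage high codes 35A and 35B were highest, at 2.63 and 4.13 CPM in DH and 2.26 and 5.97 CPM in VH. Leaving out 1 code gave S100a9 log2 fold changes of 3.35 (35B) to 4.58 (34B) in DH and of 3.22 (35B) to 4.97 (34B) in VH. The call held in 7 of 12 such fits in DH and 11 of 12 in VH. Without both 35A and 35B its log2 fold change in DH was 2.04, with an adjusted p of 0.611. The value in VH was then 1.74, with an adjusted p of 0.324. Its partner S100a8 was under the low-count filter and had no test: it was at 0.237 to 2.88 CPM in high and 0.0277 to 0.125 CPM in low DH libraries, and at 0.229 to 3.67 CPM in high and 0.0255 to 0.201 CPM in low VH libraries. Of the 15 neutrophil genes listed, 3 were tested in each region and 1, S100a9, rose. Of all genes tested, 0.113% were called higher in DH and 0.338% in VH. The summed level of the 15 was 7.94 to 19.5 CPM in high and 5.02 to 7.47 CPM in low DH libraries. In VH it was 6.91 to 20.6 CPM in high and 5.38 to 6.67 CPM in low libraries. This sum includes S100a9, at up to 4.13 CPM in DH and 5.97 CPM in VH, and S100a8, at up to 2.88 and 3.67 CPM. Of the 15, 9 in DH and 10 in VH were under 0.5 CPM in all 12 libraries, and Elane, which encodes a neutrophil granule protease, had a count of 0 in every low library and at most 1 count in a high library. Cxcr2, a chemokine receptor of neutrophils, had 0 to 23 counts in high and 0 counts in low DH libraries. The part of neutrophils in these values was not tested.

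**Figure D3:**
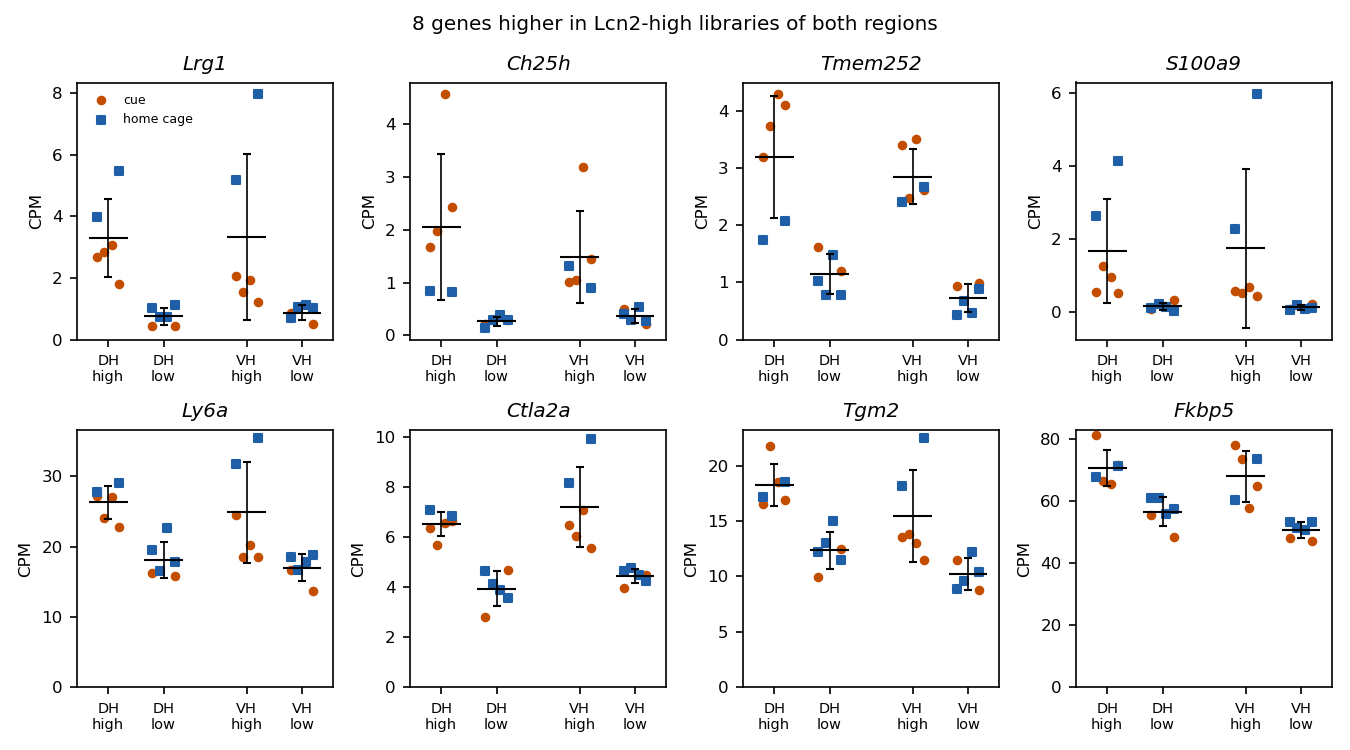
CPM of 8 of the genes higher in both regions, in high and low libraries of DH and VH, with cue libraries as circles and home cage libraries as squares; lines and bars give the mean and SD of 6 libraries. High libraries lie above all low libraries in both regions for Lrg1, Ch25h, Tmem252, S100a9, Ctla2a and Fkbp5, while Ly6a and Tgm2 overlap in VH.

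Of the remaining genes called in both regions, Ly6a and Ly6c1 encode related membrane-anchored proteins of endothelial and other cells, whose reads may be divided between near-identical family members. Ly6a was at 22.8, 27.1 and 29.0 CPM (lowest, median, highest) in high and 15.9, 17.2 and 22.7 CPM in low DH libraries (log2 fold change 0.63 ± 0.0762 SE, adjusted p = 0.00406), and rose by 0.69 ± 0.101 in VH (adjusted p = 0.0154). The log2 fold change of Ly6c1 was 0.47 ± 0.0748 in DH, with an adjusted p of 0.0222, and 0.55 ± 0.0902 in VH, with an adjusted p of 0.0228. Ctla2a, a cysteine protease inhibitor, was at 5.67, 6.61 and 7.08 CPM in high and 2.79, 4.0 and 4.68 CPM in low DH libraries (0.79 ± 0.116, adjusted p = 0.0168), and rose by 0.80 ± 0.1 in VH (adjusted p = 0.00146). Gm49391 overlaps Ctla2a on the same strand of chromosome 13, so reads of the pair may be divided between them or counted in both. The calls of Gm49391 and Ctla2a may therefore not be separate. Its log2 fold change was 0.66 ± 0.113 in DH, with an adjusted p of 0.0327, and 0.68 ± 0.112 in VH, with an adjusted p of 0.0154.

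Tgm2, tissue transglutaminase, which crosslinks proteins, was at 16.5 to 21.8 CPM in high and 9.91 to 15.0 CPM in low DH libraries (log2 fold change 0.61 ± 0.0935 SE, adjusted p = 0.0186), and rose by 0.70 ± 0.13 in VH (adjusted p = 0.0402). Adgrl4, an adhesion receptor of endothelial cells, rose by 0.41 ± 0.0742 in DH (adjusted p = 0.0475) and was at 22.6 to 29.9 CPM in high and 18.1 to 20.4 CPM in low VH libraries (0.51 ± 0.0565, adjusted p = 0.000372). Fkbp5, a co-chaperone that restrains the glucocorticoid receptor and is itself its target, was at 65.6, 69.6 and 81.3 CPM in high and 48.5, 56.8 and 61.2 CPM in low DH libraries (0.37 ± 0.065, adjusted p = 0.0425). In VH Fkbp5 was at 58.0, 69.3 and 78.2 CPM in high and 47.2, 51.2 and 53.4 CPM in low libraries (0.45 ± 0.0745, adjusted p = 0.0219).

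In 8 of the 11 genes all 6 high libraries lay above all 6 low libraries in both regions. Over all genes tested this held for 74 in DH (0.4%) and 141 in VH (0.756%), and the 6 high libraries lay below all low ones for 97 in DH (0.524%) and 108 in VH (0.579%). Code numbers 32, 34 and 35 each hold 2 high codes and 1 low code of 1 condition, and in all 11 genes both high codes lay above the low code in each of these 3 numbers in both regions, as in 213 of all 18222 genes (1.17%). The 11 genes were called on these same libraries. Their separation, here and in the 8 genes above, follows largely from that selection and is a description. With the code number in place of condition, 5 genes passed in DH and 15 in VH, and 1 gene, none of the 11, passed in both. For Ctla2a and Adgrl4 all 6 high libraries also lay above the 24 libraries of the other groups in both regions; the groups were selected on these data, so this is a description. In DH the calls of Lrg1 and Ly6a held without any 1 code, and those of the other 9 genes held in 2 to 10 of 12 such fits. In VH the calls of Lrg1, Tmem252, Adgrl4 and Ctla2a held in all 12, and those of the other 7 in 3 to 11.

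Vessel genes varied within the high class. Of the 20 genes listed for activated endothelium, 17 were tested in each region; 4 rose in DH (Lrg1, Ch25h, Vwf and Pglyrp1) and 2 in VH (Lrg1 and Ch25h), and none fell. Their median log2 fold change was 0.33 in DH and 0.52 in VH, against 0.0016 and -0.0058 for all genes. At an unadjusted p under 0.05, 9 of the 17 were higher in DH and 11 in VH, where 990 of all 18523 genes and 1536 of all 18652 were. The DH call of Ch25h has the filter limit given above. Vwf, von Willebrand factor, the clotting and adhesion protein stored by endothelial cells, was at 14.2, 21.5 and 28.9 CPM (lowest, median, highest) in high and 10.5, 13.1 and 14.2 CPM in low DH libraries, with 1 high library inside the range of the low ones (log2 fold change 0.87 ± 0.12 SE, adjusted p = 0.0175). In VH it was at 9.79, 13.8 and 36.4 CPM in high and 6.07, 8.83 and 11.8 CPM in low libraries (1.23 ± 0.269, adjusted p = 0.0915), and the 2 home cage high codes were at 30.3 and 36.4 CPM against 9.79 to 14.4 CPM in the 4 cue high codes. Sele, E-selectin, an adhesion molecule that endothelium makes on activation, was under the filter. It had 4 to 34 counts in high and 0 or 1 count in low DH libraries, and 2 to 17 counts in high and 0 or 1 count in low VH libraries. A count of 0 in the low libraries allows up to 0.0937 CPM (3 counts of the smallest low DH total). Icam1, another adhesion molecule, was at 2.55 to 10.9 CPM in high and 1.71 to 2.46 CPM in low DH libraries (1.06 ± 0.369, adjusted p = 0.386).

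Cldn5, the main tight junction protein of brain endothelium, was the single gene past the test of whether high minus low differed between cue and home cage, and this was in VH (1 of 18652, 0.00536%; 1459 at an unadjusted p under 0.05). In VH the 4 cue high codes were at 27.0 to 30.4 CPM and the 2 cue low codes at 31.4 and 39.0 CPM, while the 2 home cage high codes were at 56.1 and 57.4 CPM and the 4 home cage low codes at 30.2 to 32.6 CPM (cue minus home cage difference -1.18 ± 0.109 SE on the log2 scale, adjusted p = 0.000119). In DH the home cage high codes were at 44.9 and 45.1 CPM, against 28.3 to 37.2 CPM in the home cage low codes, and the cue high codes were at 26.7 to 33.0 CPM, against 31.9 and 35.4 CPM in the cue low codes (difference -0.68 ± 0.149, adjusted p = 1). In DH this test called 0 genes, with 686 at an unadjusted p under 0.05. S100a9 in VH, by the same test, had a difference of -3.54 ± 0.812 (adjusted p = 0.316). The summed level of 13 endothelial markers was 470 to 478 CPM in the home cage high and 338 to 366 CPM in the home cage low VH libraries, and 336 to 373 CPM in the cue high and 350 to 372 CPM in the cue low VH libraries. In DH that sum was 405 to 415 CPM in the home cage high and 363 to 373 CPM in the home cage low libraries, and 358 to 402 CPM in the cue high and 367 to 385 CPM in the cue low libraries. The sum of 10 mural cell markers, from the contractile cells of vessel walls, was 307 to 316 CPM in the home cage high and 247 to 281 CPM in the home cage low VH libraries. It was 260 to 279 CPM in the cue high and 266 to 279 CPM in the cue low VH libraries. Of the 13 endothelial markers 1, Ly6c1, rose in each region, and the part of vessel content in the results was not tested.

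**Figure D4:**
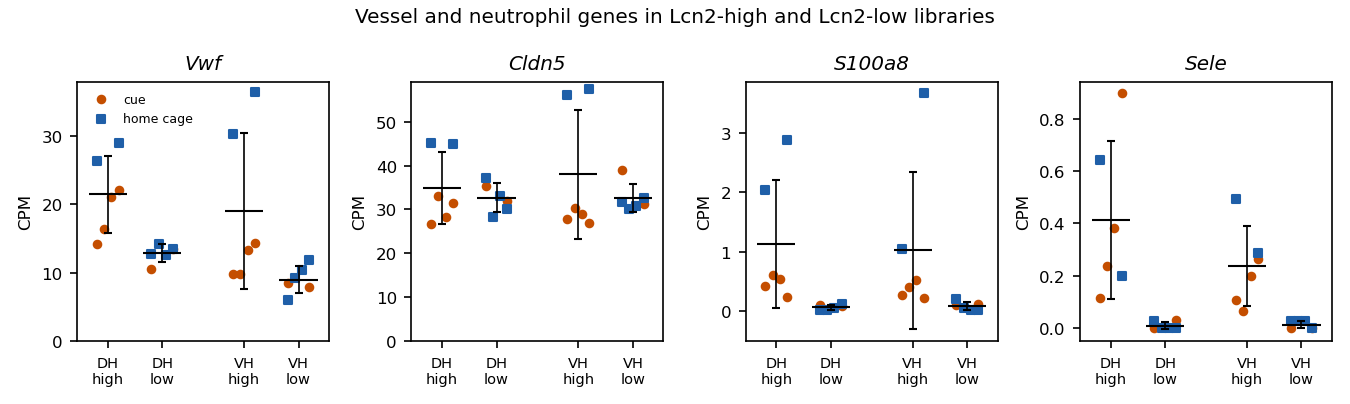
CPM of Vwf, Cldn5, S100a8 and Sele in high and low libraries of DH and VH, with cue libraries as circles and home cage libraries as squares; lines and bars give the mean and SD of 6 libraries. The 2 home cage high libraries hold the highest Vwf, Cldn5 and S100a8 values in each region, while Sele is highest in a cue library in DH.

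Of 28 acute phase genes, 10 were tested in DH and 2 rose, Lrg1 and Serpina3n, an inhibitor of proteases that marks reactive astrocytes; in VH 11 were tested and 2 rose, Lrg1 and Cp. None fell, and all 10 tested members in DH and all 11 in VH had positive log2 fold changes, with medians of 0.29 and 0.26. Over all genes, 9376 of 18523 in DH and 8935 of 18652 in VH were positive. Of all genes, 0.113% were called higher in DH and 0.338% in VH. At an unadjusted p under 0.05, 5 were higher in DH and 4 in VH. Of all genes, 990 were higher and 765 lower in DH at that p, and 1536 higher and 1138 lower in VH. Serpina3n was at 63.4 to 70.2 CPM in high and 47.4 to 59.1 CPM in low DH libraries (log2 fold change 0.32 ± 0.0545 SE, adjusted p = 0.0321). Cp, ceruloplasmin, a copper-carrying enzyme that oxidises iron, was at 14.2 to 22.2 CPM in high and 8.95 to 13.4 CPM in low VH libraries (0.72 ± 0.118, adjusted p = 0.0236). The acute phase genes Saa3 and Hp were near 0: Saa3 reached 0.118 CPM in high and 0.0286 CPM in low DH libraries. Of 22 genes of the interleukin-6 family and STAT3 signalling, 19 were tested in each region; 0 passed in DH and 1, the receptor gene Il6ra, rose in VH (8.87 to 11.8 CPM in high and 6.17 to 7.63 CPM in low libraries; 0.55 ± 0.0855, adjusted p = 0.0121). Osmr, the oncostatin M receptor, was at 7.02 to 11.1 CPM in high and 3.6 to 6.33 CPM in low VH libraries (0.72 ± 0.146, adjusted p = 0.0524). Of the NF-kappa-B list 15 of 20 genes were tested and 0 passed in either region, and of 28 interferon response genes 0 passed. At an unadjusted p under 0.05, 7 of the 19 interleukin-6 and STAT3 genes were higher in DH and 11 in VH, with 0 lower in either region. Of the 15 NF-kappa-B genes 5 were higher in DH and 5 in VH, with 0 and 1 lower. Of the 28 interferon genes 3 were higher in DH and 6 in VH, with 1 lower in each region.

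Genes of reactive astrocytes showed single calls. Of the list shared by several injuries, Serpina3n rose in DH (1 of 11 tested) and Cp in VH (1 of 10). Fkbp5 rose in each region among the list after endotoxin (1 of 11), and after ischaemia 0 of 10 passed in either. At an unadjusted p under 0.05, 3 shared genes were higher in DH and 6 in VH, with 0 lower. Medians of the shared list were 0.067 in DH and 0.29 in VH, with 9 members positive in each region. After endotoxin 2 were higher at that p in each region, and after ischaemia 2 in DH and 1 in VH, with 0 lower. Gfap, the filament protein of astrocytes, was at 382 to 491 CPM in high and 404 to 545 CPM in low DH libraries (log2 fold change -0.04 ± 0.0728 SE, adjusted p = 0.914). None of 11 astrocyte markers passed the edgeR test in either region (2 at an unadjusted p under 0.05 in DH and 5 in VH). Of all 18523 genes in DH, 990 were higher and 765 lower at that p, and of 18652 in VH, 1536 and 1138. Of 15 microglia genes 0 passed, with 5 higher in DH and 7 in VH at an unadjusted p under 0.05, and medians of 0.17 in DH and 0.21 in VH, and C1qb, a complement subunit, was at 35.9 to 65.3 CPM in high and 35.7 to 42.4 CPM in low DH libraries (0.40 ± 0.0997, adjusted p = 0.183). The Lcn2 receptor gene Slc22a17 was at 475 to 659 CPM in high and 514 to 572 CPM in low DH libraries (0.05 ± 0.0704, adjusted p = 0.888). Of the 20 genes tested for iron handling and the lipocalin-2 receptors, 0 passed in DH and 1, Cp, rose in VH.

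Of 26 glucocorticoid target genes, all tested, 2 rose in DH (Fkbp5 and Sult1a1) and 3 in VH (Fkbp5, Fam107a and Gpd1), and none fell. Sult1a1, a sulfotransferase, was at 6.76 to 12.1 CPM in high and 3.82 to 5.75 CPM in low DH libraries (log2 fold change 0.84 ± 0.15 SE, adjusted p = 0.0479). Fam107a, an actin-binding stress-response gene, was at 469 to 617 CPM in high and 366 to 467 CPM in low VH libraries (0.46 ± 0.0655, adjusted p = 0.00773). Gpd1, glycerol-3-phosphate dehydrogenase, rose by 0.26 ± 0.0473 in VH (adjusted p = 0.0236). Plin4, a lipid droplet protein, was at 1.53 to 14.7 CPM in high and 0.92 to 1.66 CPM in low DH libraries (2.34 ± 0.624, adjusted p = 0.255). The log2 fold change was positive for 20 of the 26 in DH and 21 in VH. Over all genes tested it was positive for 9376 of 18523 in DH and 8935 of 18652 in VH, and 0.113% and 0.338% were called higher. At an unadjusted p under 0.05, 10 were higher in DH and 11 in VH, with 0 lower in either region. Of all genes, 990 in DH and 1536 in VH were higher at that p. The median of the list was 0.17 in DH and 0.15 in VH. Its summed level was 1749 to 2293 CPM in high and 1535 to 1691 CPM in low DH libraries. In VH it was 1670 to 2113 CPM in high and 1439 to 1618 CPM in low libraries, with no overlap in either region. Abundant members weigh most in this sum: Fam107a alone averaged 543 CPM in high and 409 CPM in low VH libraries.

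Of 33 rapid immediate early genes 0 passed in DH, and in VH 1, the neurotrophin gene Bdnf, fell. Bdnf was at 25.9 to 34.5 CPM in high and 32.2 to 38.2 CPM in low VH libraries (log2 fold change -0.25 ± 0.0484 SE, adjusted p = 0.0355). The list's median was 0.067 in DH and -0.0042 in VH. Of 20 heat shock chaperones 0 passed in either region. Positive log2 fold changes were found in 18 of them in DH and 17 in VH, and in 9376 of all 18523 genes in DH and 8935 of 18652 in VH. At an unadjusted p under 0.05, 10 were higher and 2 lower in DH, and 4 higher and 2 lower in VH. Of all genes, 990 were higher and 765 lower in DH at that p, and 1536 higher and 1138 lower in VH. Of 16 clock genes 0 passed in either region, with 2 higher in DH and 1 lower in VH at an unadjusted p under 0.05. Of 13 hypoxia genes 1 rose in DH and 0 in VH. That gene was Slc2a1, the glucose transporter of brain endothelium, at 82.1 to 106 CPM in high and 67.0 to 76.3 CPM in low DH libraries (0.32 ± 0.0539, adjusted p = 0.0299). Of the mural cell, meningeal, choroid plexus, ependyma, erythroid, oligodendrocyte, dentate granule cell, CA1, interneuron and general neuron lists 0 members passed in either region, and of the CA3 list Cdh24 rose in DH. Some lists still leaned in 1 direction. Oligodendrocyte genes were lower for all 12 in VH (median -0.23) and 7 of 12 in DH. Choroid plexus genes were higher for 14 of 15 in VH (median 0.47) and 3 of 17 in DH. Dentate granule genes were lower for 10 of 11 in DH and higher for 10 of 11 in VH. At an unadjusted p under 0.05, 0 oligodendrocyte and 0 choroid plexus genes passed in either region. Dentate granule genes at that p were 4 lower in DH and 2 higher in VH. The summed oligodendrocyte level was 3569 to 6485 CPM in high and 3454 to 8728 CPM in low VH libraries, so the classes overlapped. Of 10 mural cell genes, 5 were higher and 0 lower in VH at an unadjusted p under 0.05. The part of cell content was not tested. The summed choroid plexus level ranged over 231 to 12732 CPM in high and 256 to 4536 CPM in low DH libraries, so the classes overlapped. In VH it was 193 to 1785 CPM in high and 152 to 1005 CPM in low libraries, also with overlap.

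**Figure D5:**
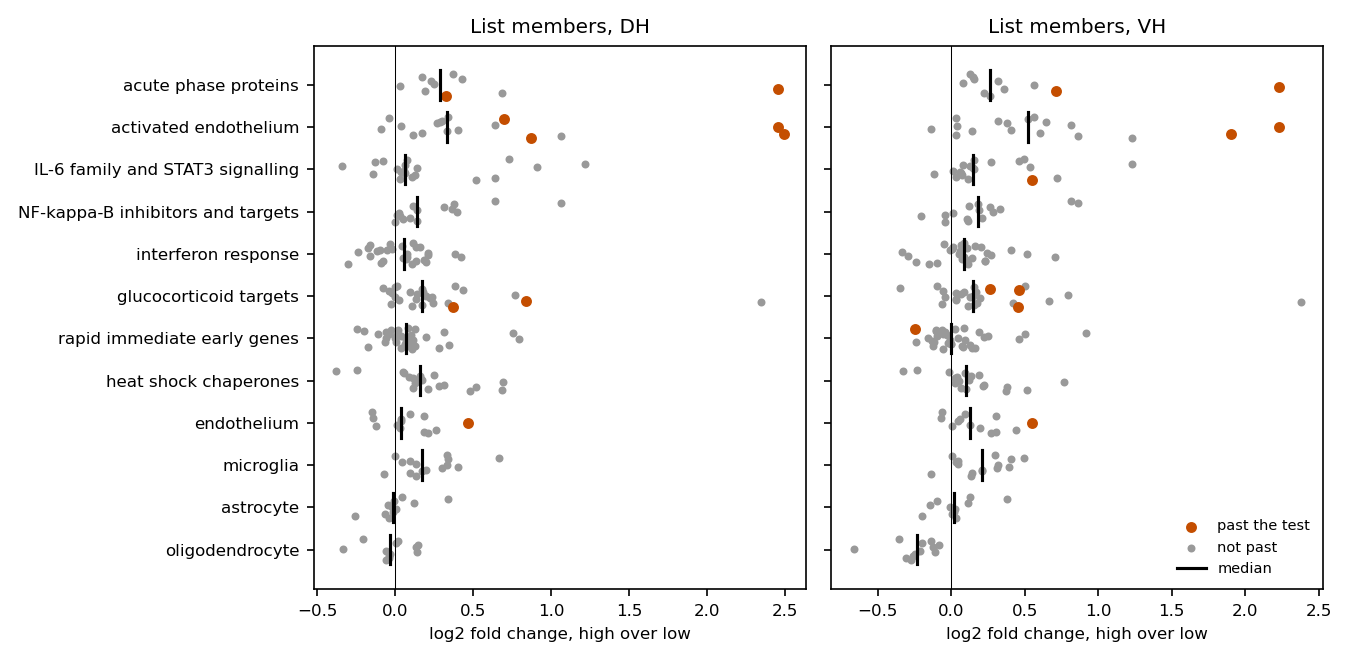
Log2 fold change of high over low libraries for the tested members of 12 gene lists in DH and VH, with members past the test in orange, others in grey and a bar at each list's median. Activated endothelium has medians of 0.33 in DH and 0.52 in VH, and 6 list memberships past the test over both regions.

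Other calls were in 1 region. In DH, Fn1, fibronectin of the extracellular matrix, was at 57.1 to 72.01 CPM in high and 44.2 to 51.4 CPM in low libraries (log2 fold change 0.45 ± 0.0566 SE, adjusted p = 0.00432). Pglyrp1, which binds bacterial peptidoglycan, was at 4.3 to 5.69 CPM in high and 2.99 to 4.03 CPM in low DH libraries (0.70 ± 0.0972, adjusted p = 0.0131). Golm1, a Golgi membrane protein, rose by 0.27 ± 0.0421 in DH (adjusted p = 0.0222), and the single gene that fell in DH was Stxbp2, a regulator of vesicle fusion, at 34.6 to 38.2 CPM in high and 40.6 to 46.3 CPM in low libraries (-0.25 ± 0.0417, adjusted p = 0.0321). In VH, Dok3, an adaptor of immune cell receptors, was at 13.5, 16.7 and 18.3 CPM in high and 9.49, 9.8 and 11.8 CPM in low libraries (0.57 ± 0.0568, adjusted p = 9.8e-05). Robo4, an endothelial guidance receptor, rose by 0.54 ± 0.0851 and Ksr1, a scaffold of MAP kinase signalling, by 0.44 ± 0.0668 (adjusted p = 0.0136 for both). Shisa7, a protein that associates with neurotransmitter receptors, rose by 0.28 ± 0.0407 (adjusted p = 0.00773) and Pdzd2 by 0.57 ± 0.0848 (adjusted p = 0.0154). In VH, Insig1, which restrains cholesterol synthesis, fell by 0.30 on the log2 scale (± 0.0501, adjusted p = 0.0154) and Ptn, the growth factor pleiotrophin, fell by 0.28 (± 0.0511, adjusted p = 0.0239). Whether high minus low differed between the regions was tested for every gene, and 0 genes passed with edgeR (458 at an unadjusted p under 0.05, and 0 with limma-voom).

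The genes whose levels were most like Lcn2, by Spearman correlation over the 12 high and low libraries of a region among genes with a mean of at least 1 CPM, are given for each region as a description. In DH the first 3 of 10 were Hacd3 (rho 0.895), Ch25h (0.881) and Fgf7 (0.874), and in VH they were Sbk3 (0.972), Abcc4 (0.965) and Ncoa5 (0.93). These correlations describe libraries that were chosen by Lcn2 and that fall into 2 separate clusters of Lcn2, and they share the library totals.

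In the 24 libraries per region of the other groups, where Lcn2 ranged from 0 to 0.62 CPM in DH and 0 to 0.697 CPM in VH, 0 genes passed a test for a slope on log2(Lcn2 CPM + 0.1) with edgeR in either region (497 in DH and 632 in VH at an unadjusted p under 0.05). Lcn2 had 0 to 24 counts in these libraries of each region, so its values hold much counting error. The test therefore cannot tell whether the genes go with Lcn2 there. Ch25h had a slope of 0.46 ± 0.194 SE in DH and 0.46 ± 0.156 in VH (adjusted p = 1 and 0.999), and Tgm2 in VH had one of 0.22 ± 0.0476 (adjusted p = 0.999).

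The classes were unequal between conditions, and the count of genes that differed between cue and home cage moved with them. With class in the model, 255 genes of 18524 passed in DH (1.38%), 209 higher and 46 lower after the cue, against 515 without class. In VH 1709 of 18653 passed (9.16%), 907 higher and 802 lower, against 2390 without class. Of the DH calls 241 were made in both fits. With class in the model Lrg1 fell after the cue relative to the home cage, with a log2 fold change of -0.93 ± 0.168 SE in DH, at an adjusted p of 0.0108, and of -1.48 ± 0.26 in VH, at an adjusted p of 0.00768.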

How the data were processed

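Messenger RNA libraries (stranded, single-end reads of 75 bp, per the labels' protocols) of DH and VH were used. The deposited gene table held raw counts of reads for 55401 genes, with the columns that featureCounts writes, and a second deposited table held estimated counts of 119414 transcripts with the columns that kallisto writes. HISAT2, featureCounts, kallisto, FastQC, DESeq2 and the build GRCm38 are named in the submitters' processing notes; the sources used here do not give their versions or the strand setting of the counting. Symbols were found for 55141 genes. All library totals were 30330382 to 56258370 gene counts. A chi-square comparison over 28 pairs of libraries within class, region and condition found at least 4.51 per degree of freedom, so none was a repeat of another.

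Classes followed the threshold of 2 CPM of Lcn2, which got no test. The fit to the gene counts used R 4.3.3 and edgeR 4.0.16 (TMM normalization, filterByExpr by class, estimateDisp, glmQLFit with robust estimation, quasi-likelihood F-test) with condition in the model, 12 libraries per region, Benjamini-Hochberg adjustment over all genes tested and a threshold of 0.05. SE is the size of the log2 fold change over the square root of F. The script was tested on simulated data. CPM levels are counts over library totals, without TMM scaling. The low-count filter removed S100a8 and Sele. Named genes were, per region, the 12 higher and 12 lower with the smallest p among those called, gene list members, genes called in both regions with a log2 fold change over 1 in each, those of an interaction with fewer than 5, and the 10 most like Lcn2; Gm49391, an unnamed gene model, fell outside this and was named after its values were seen. The division into classes and the 29 gene lists were chosen with earlier results of these data known. Alternatives used DESeq2 1.42.0 and limma 3.58.1 among others; a fit without codes 35A and 35B, and slopes without code 38A, were added after the data were seen.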

Additional observations from a re-analysis of the deposited data

Results flagged for a closer look

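In 4 of 48 groups of 6 libraries examined (Lcn2 and the genes called in both regions), 1 library stood far from the others of its class; chance gives about 1 such group in 20. The S100a9 level of code 35B in VH was 5.97 CPM, the highest of the high libraries. The Ch25h level of code 34A in VH was 3.2 CPM, again the highest of the high libraries. The Gm49391 level of code 35B in VH was 5.68 CPM, the highest of the high libraries. The Ly6c1 level of code 34B in VH was 15.9 CPM, the lowest of the low libraries; this library had the largest total, 56258370 counts.

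High minus low of Cldn5 in VH differed between cue and home cage by a test of that difference (-1.18 on the log2 scale, adjusted p = 0.000119 with edgeR). The home cage side rests on 2 high codes, 35A and 35B, which share a code number.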

How the results depend on the processing

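Counts of calls are given for DH, VH and both regions, against 22, 66 and 11 in the fit reported. Without a low-count filter they were 95, 418 and 48, with DESeq2 177, 403 and 83, and with all 36 libraries of a region 102, 209 and 50. At an Lcn2 threshold of 5 CPM they were 0, 11 and 0, in cue libraries only 0, 2 and 0, and in home cage libraries only 11, 125 and 9. With code number in place of condition they were 5, 15 and 1, with a choroid plexus covariate 62, 65 and 19, and without condition 38, 70 and 13. Without codes 35A and 35B, an alternative chosen after seeing the data, they were 1, 1 and 0. Leaving out each code in turn gave 3 to 52 calls in DH, 18 to 246 in VH and 2 to 28 in both regions. The count of genes that differed between cue and home cage in DH was 515 without class, against 255. With RLE size factors, a mean CPM of at least 1, a threshold of 1 CPM or Lcn2 as a continuous covariate, counts stayed within 1.5 times. Values were taken for the 22 genes called in DH and the VH genes named for their calls. Of these values, 178 from leaving out 1 code and 212 from other settings missed the threshold. A further 362 and 415 kept the call, and no direction reversed. These fits share libraries with the fit that made the calls, so the kept direction is a description. The causes were not tested. With code as a replicate block, the region difference gave 0 calls, with 614 genes at an unadjusted p under 0.05, and with limma-voom and code as a random replicate block 0, with 685. Deviations of the DH and VH libraries of a code correlated above 0.1 in 7 of 12 codes (-0.118 to 0.307, each end shared by the codes of a group of 2), with a consensus correlation of 0.149. Codes were not taken as paired because a correlation over 0.1 in every code was required, and not every code correlated best with itself. Lcn2 itself went with the code, as either region alone gave the same 6 high codes at 2 CPM. Calls in both regions therefore cannot be taken as independent. Low libraries held 1 to 11 Lcn2 counts each, which limits the precision of levels among them.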
